A study of Mus musculus with 9 samples.

Results

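The genes described here are 38 genes of autophagy and of the lysosome, taken as a given list of symbols and matched to the gene identifiers of the deposited tables. The list was chosen with earlier results of these data known. All 38 were found among the 21959 genes listed, and all 38 were among the 11562 genes with enough counts to be tested. The list held 20 autophagosome genes (3 cargo receptors, 5 Atg8 family genes, 6 initiation and nucleation genes and 6 conjugation genes), 2 transcription factors, 13 lysosomal genes (3 of the membrane, 5 proteases and 5 other hydrolases and cofactors) and 3 sterol export genes. RNA sequencing covered 9 libraries of AML12, a mouse hepatocyte line derived from a mouse carrying a TGF-alpha transgene, with 3 libraries in each of 3 groups.

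All 3 groups were kept in free fatty acids (FFA), so no group without the fatty acid load was compared. OCY-EV+ANTA cells were treated with aged osteocyte vesicles after a 30 min incubation of the vesicles with an antagomir, a modified antisense oligonucleotide, directed at miR-483-5p. In OCY-EV+ANTA-NC the same kind of vesicles had been incubated with a negative control antagomir, and both kinds were given at 2 µg/ml. Veh cells received phosphate-buffered saline. How the vesicles were then recovered is unclear, since both ultracentrifugation and ultrafiltration appear in the labels. No group received vesicles without an antagomir or the control antagomir without vesicles, so OCY-EV+ANTA-NC against Veh joins both. Nothing in the labels says that the 3 libraries of a group were separate cultures, so the p-values measure the spread between libraries, which may be technical. The microRNA that the antagomir targets is shown because the antagomir against it is what sets the vesicle groups apart. It lies at chr7:142654968-142654989 on the minus strand (GRCm38.p6), its sequence is from RefSeq, and the capitals mark its seed, bases 2 to 8.
mmu-miR-483-5p: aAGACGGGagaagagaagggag

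Autophagy delivers cytoplasm to lysosomes for digestion. A kinase complex and a lipid kinase complex start a cup-shaped membrane, a ubiquitin-like conjugation system attaches Atg8 proteins (the LC3 and GABARAP families) to it, and receptors such as p62 tether cargo to those proteins. The closed autophagosome fuses with lysosomes, where hydrolases degrade the content, and in hepatocytes both the turnover of lipid droplets (lipophagy) and the release of cholesterol from lipoproteins pass through this compartment. The transcription factors TFEB and TFE3 bind E-box sites of lysosomal genes and are held in the cytosol when the kinase mTORC1 is active.

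Libraries held 17298814 to 21737643 counts. Hepatocyte markers were present, although Alb and Ttr were low, at no more than 7.21 and 2.33 CPM (counts relative to the TMM-scaled total of the library) in any library. Summed over 10 hepatocyte markers, nearly all of it the keratins Krt8 and Krt18, CPM ran from 3736 to 3944 in OCY-EV+ANTA, from 3530 to 3639 in OCY-EV+ANTA-NC and from 3745 to 3763 in Veh. The bile duct keratins Krt19 and Krt7 were abundant in every library, and a summed list of 5 cholangiocyte markers was 3757 to 4076 CPM in OCY-EV+ANTA, 3459 to 3605 in OCY-EV+ANTA-NC and 3744 to 3821 in Veh. These keratins gave nearly all of that sum. Sox9 had at most 34.5 CPM, Cftr at most 2 counts in a library, and Epcam was at 0 in all 9. The hepatocyte and cholangiocyte sums were both lowest in OCY-EV+ANTA-NC. Krt19 was called higher in OCY-EV+ANTA against OCY-EV+ANTA-NC, at a log2 fold change of 0.19 (adjusted p = 0.000344 by edgeR). Krt7 and Sox9 were not called, at 0.04 and -0.02. In OCY-EV+ANTA against OCY-EV+ANTA-NC edgeR called Krt8 and Krt18 higher, at log2 fold changes of 0.12 and 0.10 (adjusted p = 0.00259 and 0.00975), and the secreted liver proteins Alb, Ttr and Apoa1 lower, at -0.76, -1.28 and -0.68 (adjusted p = 0.0387, 0.00733 and 0.0238). Of 8 osteocyte markers Sost, Dmp1 and Pdpn were at 0 in all 9 libraries, Mepe, Fgf23, Bglap and Phex had at most 1, 1, 3 and 9 counts, and Spp1, which other cells also make, gave nearly all of a sum of 148 to 150 CPM in OCY-EV+ANTA, 156 to 184 CPM in OCY-EV+ANTA-NC and 149 to 165 CPM in Veh. Spp1 was called lower in OCY-EV+ANTA against OCY-EV+ANTA-NC, at -0.19 (adjusted p = 0.0194 by edgeR). The part of these markers in the results below was not tested. In bulk libraries, fewer cells of a type and less RNA per cell cannot be told apart.

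Most of the 38 genes were well expressed, and the levels of the set differed far more between genes than between groups. Levels between genes are compared in the deposited FPKM, which divide by a fixed length per gene. How that length was set is not given. It was 11317 bases for Npc1 and 7065 bases for Becn1, and the order of genes depends on it. The median of the 38 was 21.5 FPKM over the 9 libraries, against 6.28 FPKM for all genes tested. Psap, the precursor of the saposins that help lipid hydrolases reach their substrates, was the most abundant at 235 FPKM. Lamp1, a glycoprotein of the lysosomal membrane, followed at 212 FPKM, and Gabarap of the Atg8 family at 204 FPKM. The ranges of Lamp1 (206 to 218 FPKM) and Gabarap (196 to 210 FPKM) over the 9 libraries overlapped, so their order was not beyond the spread, and the lowest Psap library, at 222 FPKM, lay above both. The cathepsins Ctsz and Ctsd came next at 136 and 117 FPKM with ranges that did not overlap, and those 5 genes were the only ones of the 38 with a mean over 100 FPKM. In all, 26 of the 38 genes averaged over 10 FPKM, the receptor gene Sqstm1 among them at 92.0 FPKM. The other 12 averaged less, among them the kinase gene Ulk1 at 4.76, Becn1 at 4.80 and Atg16l1 at 3.41 FPKM, whose products act in autophagosome formation. Tfeb was the lowest at 0.923 FPKM, with 0.738 to 1.07 FPKM over the libraries, and its relative Tfe3 stood at 7.73 FPKM.

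**Figure D1:**
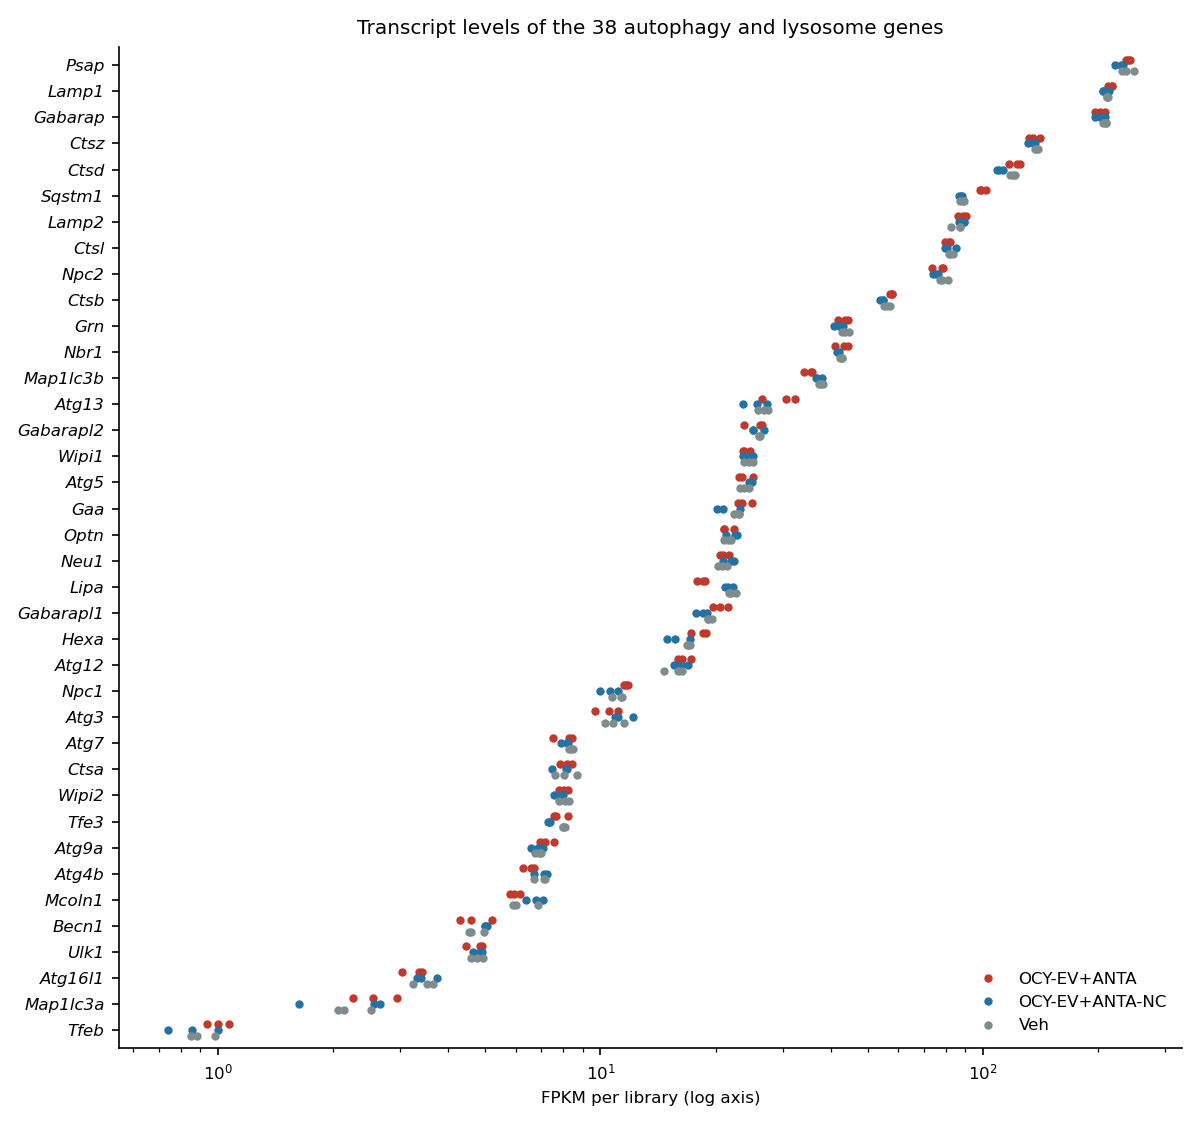
FPKM of each of the 38 genes (rows, ordered by their mean over all libraries) on a log axis, with 1 point for each library and the groups OCY-EV+ANTA, OCY-EV+ANTA-NC and Veh in separate colours. Psap, Lamp1 and Gabarap stand at the top with means of 235, 212 and 204 FPKM, Tfeb at the bottom with 0.923 FPKM, and the 9 points of a gene lie close together beside the differences between genes.

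Within families, 1 or a few genes supplied most of the summed FPKM. Gabarap made up 70.7% ± 0.27 of the summed FPKM of the 5 Atg8 genes in OCY-EV+ANTA, 70.8% ± 0.58 in OCY-EV+ANTA-NC and 70.9% ± 0.34 in Veh (SD, n = 3 each). Map1lc3b, which encodes the LC3B protein used as a marker of autophagosomes, came second at 12.3% ± 0.63 in OCY-EV+ANTA, 13.0% ± 0.36 in OCY-EV+ANTA-NC and 12.9% ± 0.26 in Veh, and Map1lc3a stayed at or below 1% in each library. These shares depend on the length given to each gene, 1844 bases for Gabarap and 7517 for Map1lc3b. Without division by length, the 2 genes averaged 377 and 266 CPM in OCY-EV+ANTA. Gabarapl2 is uncertain in these shares, since processed pseudogenes match parts of its transcript at 92.5% to 99.4% identity. Among the 5 proteases, Ctsz and Ctsd gave 33.6% ± 0.97 and 30.1% ± 0.99 of the summed FPKM in OCY-EV+ANTA, 34.5% ± 0.40 and 28.4% ± 0.75 in OCY-EV+ANTA-NC and 34.1% ± 0.085 and 29.6% ± 0.16 in Veh. Ctsa, a carboxypeptidase that also protects other enzymes of the lysosome, averaged between 2.00% and 2.04% of the sum over the 3 groups.

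Promoters were read for the E-box because TFEB and TFE3 bind it. The letters searched were CACGTG, which read the same on both strands, and longer forms that contain it. These were GTCACGTG on either strand, CACGTG with a T before and an A after it, and GTCACGTG followed by AC. Windows ran from 250 bases before to 50 after each RefSeq start (GRCm38.p6), and 32 of the 38 genes had at least 1 window. CACGTG was present for 9 of the 32 genes (28.1%), against 1067 of 9121 tested genes with a window (11.7%). GTCACGTG was present for 6 of the 32 (18.8%), against 4.85% of tested genes. CACGTG between a T and an A was present for 4 of the 32 (12.5%), against 2.25% of tested genes. The longest form, GTCACGTG followed by AC, was present for 0 of the 32, against 76 of 9121 tested genes (0.833%). The 9 genes with CACGTG were Atg3, Atg5 and Atg7 of the conjugation system, Lamp1 and Mcoln1 of the lysosomal membrane, the proteases Ctsa, Ctsd and Ctsl, and the glycogen hydrolase Gaa. No match was found in the available windows of the cargo receptor, Atg8, initiation, transcription factor and sterol export genes. The genes without a window were Map1lc3a, Becn1, Atg12, Atg16l1, Ctsb and Npc1. A match is a description of letters, not of binding. The windows of 4 genes are shown, those of Lamp1 and Ctsd as promoters with several matches at abundant lysosomal genes, and those of Sqstm1 and Lipa as the genes with the firmest differences between groups. Each reads 5′ to 3′ along the strand of its gene, and capitals mark CACGTG. The windows lie at chr8:13158911-13159210 on the plus strand for Lamp1 and, on the minus strand, at chr7:142387778-142388077 for Ctsd, chr11:50210771-50211070 for Sqstm1 and chr19:34527425-34527724 for Lipa.
Lamp1: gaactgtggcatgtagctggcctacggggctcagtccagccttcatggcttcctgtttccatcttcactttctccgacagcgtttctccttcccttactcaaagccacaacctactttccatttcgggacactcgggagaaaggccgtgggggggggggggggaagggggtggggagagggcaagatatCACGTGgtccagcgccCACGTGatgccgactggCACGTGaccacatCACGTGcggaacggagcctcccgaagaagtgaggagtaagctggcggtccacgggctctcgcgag
Ctsd: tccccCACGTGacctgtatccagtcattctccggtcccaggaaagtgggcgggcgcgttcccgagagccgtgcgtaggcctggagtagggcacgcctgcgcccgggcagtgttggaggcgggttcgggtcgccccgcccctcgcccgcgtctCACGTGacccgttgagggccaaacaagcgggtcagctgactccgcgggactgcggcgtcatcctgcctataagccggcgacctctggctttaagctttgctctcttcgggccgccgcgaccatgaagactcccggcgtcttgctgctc
Sqstm1: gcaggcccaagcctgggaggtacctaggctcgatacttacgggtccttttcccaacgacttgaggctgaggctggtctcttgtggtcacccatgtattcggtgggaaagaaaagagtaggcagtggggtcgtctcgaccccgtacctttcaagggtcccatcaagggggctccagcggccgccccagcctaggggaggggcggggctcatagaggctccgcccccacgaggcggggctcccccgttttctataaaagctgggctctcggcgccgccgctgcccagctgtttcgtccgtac
Lipa: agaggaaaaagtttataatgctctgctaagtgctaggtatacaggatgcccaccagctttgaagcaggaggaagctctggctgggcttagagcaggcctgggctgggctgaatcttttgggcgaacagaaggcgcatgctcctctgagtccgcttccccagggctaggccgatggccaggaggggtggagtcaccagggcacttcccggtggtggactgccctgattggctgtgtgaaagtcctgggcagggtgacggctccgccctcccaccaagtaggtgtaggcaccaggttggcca
In Lamp1 the 4 matches began 61, 45, 28 and 15 bases before the start, and the one at 28 bases was part of the longer GTCACGTG on the opposite strand. Ctsd had 1 match 245 and another 98 bases before its start, both part of GTCACGTG on the opposite strand. Neither the Sqstm1 nor the Lipa window held one.

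**Figure D2:**
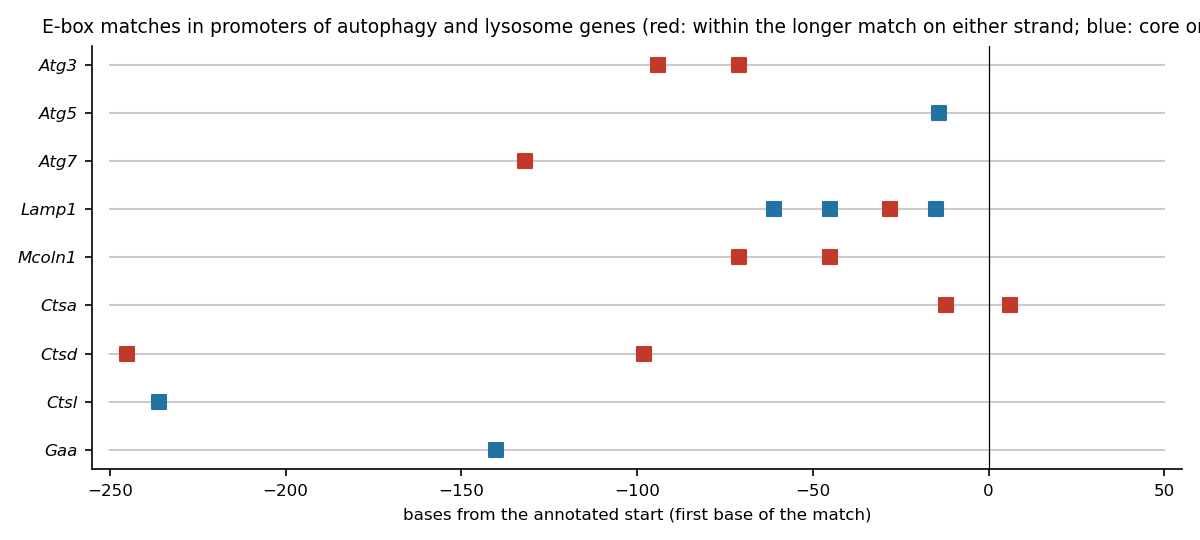
Positions of CACGTG in the promoter windows of the 9 genes that held it, as bases from the annotated start on the x axis, with grey lines for the 300-base windows. Red squares lie within GTCACGTG on either strand and blue squares hold the core letters alone, and Lamp1 carries 4 matches between 61 and 15 bases before its start.

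The first comparison, OCY-EV+ANTA against OCY-EV+ANTA-NC, set vesicles incubated with the antagomir directed at miR-483-5p against vesicles incubated with the control antagomir. The level of the microRNA itself was not analysed here. A gene was called when edgeR's quasi-likelihood test and Benjamini-Hochberg adjustment over the 11562 genes gave an adjusted p under 0.05. Of the 38 genes, 9 rose and 1 fell in OCY-EV+ANTA, which is 26.3% of the list where 14.7% of all genes tested were called. By direction this was 23.7% higher and 2.63% lower, against 7.59% and 7.09% over all genes (878 and 820 genes). Since the list was chosen with earlier results of these data known, these shares describe it and do not test it. Scaled by library totals alone, the split was 6 and 1 among the 38 genes and 530 and 1155 over all genes, and with offsets for GC content and length it was 7 and 2 among the 38. The changes were small: the called log2 fold changes ran up to 0.26 in size, the median of the 38 was 0.06, and the median of all genes was -0.0020. Groups did not overlap for 12 genes that were higher and 3 that were lower in OCY-EV+ANTA (39.5% of the list, against a background of 29.9%). The genes that rose were Sqstm1, Gabarapl1, Atg13, Ctsb, Ctsd, Gaa, Hexa, Psap and Npc1, and the gene that fell was Lipa. Among autophagosome genes 3 of 20 were called, and among the 13 lysosomal genes 5 were, or 15% and 38.5%. Of the 8 called genes with a promoter window, 2 held CACGTG (Ctsd and Gaa), and so did 7 of the 24 that were not called.

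**Figure D3:**
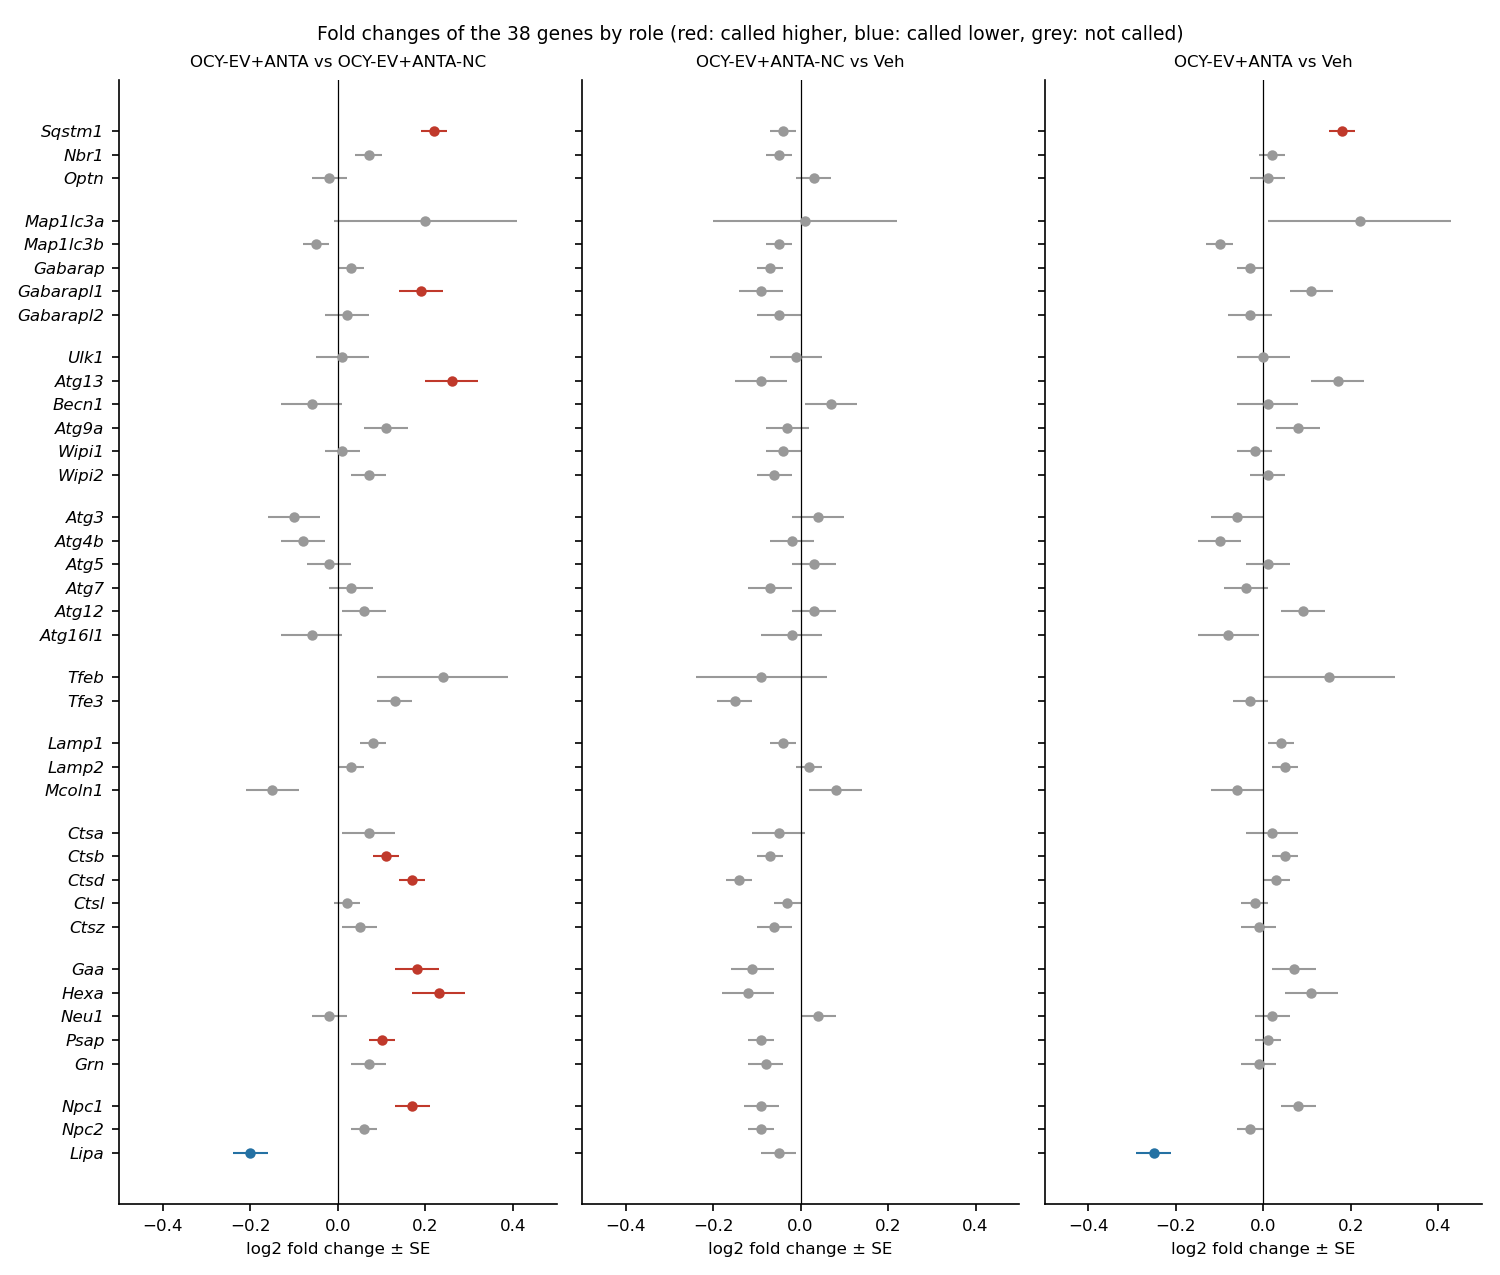
Log2 fold change with its standard error for each of the 38 genes, grouped by role from cargo receptors at the top to sterol export at the bottom, in OCY-EV+ANTA against OCY-EV+ANTA-NC, in OCY-EV+ANTA-NC against Veh and in OCY-EV+ANTA against Veh. Red and blue mark genes called higher and lower, and grey marks genes not called: 10 genes are coloured in the left panel, 0 in the middle one and 2 in the right one.

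Sqstm1 encodes p62, the receptor that carries ubiquitinated cargo into autophagosomes and that also binds the NRF2 repressor KEAP1 (chromosome 11, 50199366 to 50210827, minus strand, GRCm38). Its level was 334, 348 and 334 CPM in OCY-EV+ANTA, 292, 287 and 291 CPM in OCY-EV+ANTA-NC, and 299, 294 and 302 CPM in Veh. Every OCY-EV+ANTA library lay above all 6 others, and the other groups lay close together. The log2 fold change over OCY-EV+ANTA-NC was 0.22 (SE 0.03, adjusted p = 7.41e-05 by edgeR's quasi-likelihood test), which was the smallest adjusted p of the list, and the call held in all 18 alternative analyses. Without a stated strand setting, reads of Sqstm1 cannot be told apart from those of Mrnip over the 17.3% of its exon bases that lie opposite that gene. The receptors Nbr1 and Optn, which bind ubiquitin and Atg8 proteins in the same way, had log2 fold changes of 0.07 and -0.02 and were not called.

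In the Atg8 family only Gabarapl1, the lowest of the GABARAP genes in FPKM, passed the test (chromosome 6, 129533160 to 129542346, plus strand). It stood at 44.0, 42.0 and 39.9 CPM in OCY-EV+ANTA, 36.8, 35.5 and 37.7 CPM in OCY-EV+ANTA-NC, and 39.6, 38.6 and 38.7 CPM in Veh. The OCY-EV+ANTA libraries lay above the rest and the OCY-EV+ANTA-NC libraries below the rest, with no overlap between any of the 3 groups. Its log2 fold change was 0.19 (SE 0.05, adjusted p = 0.0194 by edgeR), and the adjusted p reached 0.0874 without OCY-EV+ANTA 1, OCY-EV+ANTA 2 or OCY-EV+ANTA-NC 2, each of which ended the call. In FPKM it supplied 7.21% ± 0.14 of the Atg8 total in OCY-EV+ANTA, 6.46% ± 0.29 in OCY-EV+ANTA-NC and 6.57% ± 0.090 in Veh (SD, n = 3 each). Exons of a gene on the other strand cover 28.3% of its exon bases. Map1lc3b was 258, 272 and 269 CPM in OCY-EV+ANTA, 273, 283 and 272 CPM in OCY-EV+ANTA-NC, and 281, 284 and 290 CPM in Veh. Its highest OCY-EV+ANTA library lay just below the lowest of both other groups, but the log2 fold change of -0.05 over OCY-EV+ANTA-NC was not called (adjusted p = 0.337 by edgeR). Gabarap, Gabarapl2 and Map1lc3a had log2 fold changes of 0.03, 0.02 and 0.20 with overlapping groups, and Map1lc3a had the widest standard error of the list at 0.21.

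Atg13, the subunit that anchors the ULK1 kinase complex, was the called initiation gene (chromosome 2, 91674618 to 91710576, minus strand). Libraries of OCY-EV+ANTA held 116, 143 and 134 CPM, those of OCY-EV+ANTA-NC 101, 111 and 118 CPM, and those of Veh 120, 114 and 117 CPM. OCY-EV+ANTA 1, the lowest of its group, lay below OCY-EV+ANTA-NC 3, so the groups overlapped. The log2 fold change was 0.26 (SE 0.06, adjusted p = 0.00769 by edgeR), the largest of the list, and without OCY-EV+ANTA 2 or on the FPKM scale the call was lost (adjusted p up to 0.0712). Ulk1, Becn1 (a subunit of the lipid kinase complex), Atg9a (a membrane protein of the vesicles that seed autophagosomes), Wipi1 and Wipi2 (readers of the lipid that the kinase makes) were not called and ranged from -0.06 for Becn1 to 0.11 for Atg9a. Becn1 shares 43.9% of its exon bases with a gene on the other strand and Atg9a shares 31.8% with one on the same strand, so both are uncertain.

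None of the 6 conjugation genes was called in any comparison. This group holds the activating enzyme Atg7, the transfer enzyme Atg3, the protease Atg4b that trims Atg8 proteins, and Atg5, Atg12 and Atg16l1, which form the complex that completes the attachment. Log2 fold changes in OCY-EV+ANTA against OCY-EV+ANTA-NC ran from -0.10 for Atg3 to 0.06 for Atg12, the smallest adjusted p was 0.311, and every gene had overlapping groups.

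The transcription factors were not called either. Tfeb had 6.10, 5.39 and 5.72 CPM in OCY-EV+ANTA, 4.12, 5.61 and 4.78 CPM in OCY-EV+ANTA-NC, and 5.00, 5.59 and 4.84 CPM in Veh. These values rest on 76 to 121 counts per library, the groups overlapped, and the log2 fold change of 0.24 over OCY-EV+ANTA-NC carried an SE of 0.15 (adjusted p = 0.308 by edgeR). Tfe3 was 77.0, 72.0 and 70.5 CPM in OCY-EV+ANTA, 67.4, 66.7 and 67.0 CPM in OCY-EV+ANTA-NC, and 75.1, 74.3 and 74.5 CPM in Veh. Each OCY-EV+ANTA-NC library lay below all 6 others. Its log2 fold changes were 0.13 in OCY-EV+ANTA against OCY-EV+ANTA-NC (adjusted p = 0.0554) and -0.15 in OCY-EV+ANTA-NC against Veh (adjusted p = 0.0932), and both missed the threshold of edgeR's test. Transcript levels do not show where in the cell these factors are.

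Of the lysosomal membrane genes, 0 of 3 were called. Lamp1 stood at 589, 591 and 571 CPM in OCY-EV+ANTA, 544, 547 and 565 CPM in OCY-EV+ANTA-NC, and 565, 572 and 568 CPM in Veh. OCY-EV+ANTA lay above OCY-EV+ANTA-NC without overlap, by a log2 fold change of 0.08 with SE 0.03 (edgeR adjusted p = 0.059). Lamp2, which is needed for autophagosomes to mature, had a log2 fold change of 0.03. Mcoln1, the calcium channel of the lysosome whose promoter window holds CACGTG, went the other way, with 46.9, 45.6 and 44.0 CPM in OCY-EV+ANTA, 52.6, 50.9 and 47.6 CPM in OCY-EV+ANTA-NC, and 45.6, 44.9 and 52.1 CPM in Veh. OCY-EV+ANTA was below OCY-EV+ANTA-NC without overlap, and the log2 fold change of -0.15 was not called (SE 0.06, adjusted p = 0.111 by edgeR), although it passed when the fit allowed for GC content and length.

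Both called proteases rose. Ctsd, the aspartic protease cathepsin D (chromosome 7, 142375911 to 142388038, minus strand), stood at 292, 280 and 295 CPM in OCY-EV+ANTA, 256, 263 and 253 CPM in OCY-EV+ANTA-NC, and 283, 279 and 286 CPM in Veh. The 3 OCY-EV+ANTA-NC libraries were below all others, while OCY-EV+ANTA and Veh overlapped. The log2 fold change was 0.17 (SE 0.03, adjusted p = 0.00195 by edgeR) and the call held in all 18 alternatives, with a range of 0.14 to 0.19. Ctsd shares 34.4% of its exon bases with Gm49369 on the same strand, so its counts depend on how shared reads were treated. Ctsb, the cysteine protease cathepsin B (chromosome 14, 63122462 to 63145923, plus strand), had 350, 355 and 352 CPM in OCY-EV+ANTA, 327, 323 and 327 CPM in OCY-EV+ANTA-NC, and 347, 336 and 341 CPM in Veh. Its 3 groups did not overlap, with OCY-EV+ANTA at the top and OCY-EV+ANTA-NC at the bottom. The log2 fold change was 0.11 (SE 0.03, adjusted p = 0.0146 by edgeR), and 5 of the 18 alternatives ended the call with adjusted p up to 0.0717, among them those without OCY-EV+ANTA 2 and without OCY-EV+ANTA-NC 2. Exons on the other strand cover 12.8% of the exon bases of Ctsb, and 16.3% of its transcript matches Fdft1 at 100% identity. Without a stated strand setting, reads of that part cannot be assigned with certainty. Ctsa, Ctsl and Ctsz were not called, at log2 fold changes of 0.07, 0.02 and 0.05. Exons on the other strand cover 17.4% of the exon bases of Ctsa and 26.8% of those of Ctsl. Ctsl also shares 6.1% on the same strand, so the counts of both are uncertain. Summed over the 5 proteases the deposited FPKM were 405 ± 1.8 in OCY-EV+ANTA, 389 ± 5.4 in OCY-EV+ANTA-NC and 405 ± 4.3 in Veh (SD, n = 3 each).

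Of the 5 other hydrolases and cofactors, 3 rose as well. Gaa, the acid glucosidase that digests glycogen (chromosome 11, 119267887 to 119285454, plus strand), had 110, 114 and 120 CPM in OCY-EV+ANTA, 95.2, 99.1 and 110 CPM in OCY-EV+ANTA-NC, and 107, 110 and 111 CPM in Veh. The highest OCY-EV+ANTA-NC library reached almost to the lowest OCY-EV+ANTA library, and its log2 fold change was 0.18 (SE 0.05, adjusted p = 0.0204 by edgeR). Hexa, a subunit of the hexosaminidase that breaks down gangliosides (chromosome 9, 59539540 to 59565109, plus strand), had 34.9, 38.1 and 37.1 CPM in OCY-EV+ANTA, 29.2, 33.8 and 31.0 CPM in OCY-EV+ANTA-NC, and 33.9, 33.8 and 34.5 CPM in Veh. All OCY-EV+ANTA libraries were above the rest, with a log2 fold change of 0.23 over OCY-EV+ANTA-NC (SE 0.06, adjusted p = 0.0154 by edgeR). Exons on the other strand cover 12.8% of the exon bases of Hexa, so its counts depend on the strand setting.

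Psap (chromosome 10, 60277627 to 60302597, plus strand) had 655, 667 and 668 CPM in OCY-EV+ANTA, 621, 605 and 628 CPM in OCY-EV+ANTA-NC, and 652, 638 and 684 CPM in Veh. OCY-EV+ANTA-NC was again lowest in each library, and OCY-EV+ANTA lay within the spread of Veh. The log2 fold change was 0.10 (SE 0.03, adjusted p = 0.0268 by edgeR). The calls of Gaa and Psap were the least firm of the 10: 8 of 18 alternatives ended each, with adjusted p up to 0.107 for Gaa and 0.141 for Psap, among them those without OCY-EV+ANTA 2, OCY-EV+ANTA 3, OCY-EV+ANTA-NC 1 or OCY-EV+ANTA-NC 2. Hexa lost its call in 3 alternatives that each left out 1 library (OCY-EV+ANTA 2, OCY-EV+ANTA 3 or OCY-EV+ANTA-NC 1; adjusted p up to 0.0796). Neu1, a sialidase, and Grn, which encodes progranulin, were not called at log2 fold changes of -0.02 and 0.07. Macrophages are rich in lysosomal enzymes, and their markers were read beside these genes. Of 10 such markers 3 passed the filter on low counts (Mrc1, Cd14 and Cd68), and the sum of the 10 was 99.5 to 120 CPM in OCY-EV+ANTA, 70.2 to 84.2 CPM in OCY-EV+ANTA-NC and 72.0 to 77.8 CPM in Veh. The sum was highest in OCY-EV+ANTA, and Mrc1 carried most of it, with 84.0, 57.3 and 60.8 CPM in OCY-EV+ANTA, 44.8, 43.2 and 36.4 CPM in OCY-EV+ANTA-NC, and 43.4, 36.4 and 38.1 CPM in Veh. Mrc1 was called higher in OCY-EV+ANTA, at log2 fold changes of 0.70 against OCY-EV+ANTA-NC and 0.78 against Veh (adjusted p = 0.000167 and 0.000124 by edgeR). Cd14 and Cd68 were not called in either comparison. Against OCY-EV+ANTA-NC their log2 fold changes were 0.04 and 0.34 with overlapping groups (adjusted p = 0.78 and 0.168 by edgeR). Below the filter, Lyz2 had at most 11 counts in a library and was higher in OCY-EV+ANTA without overlap, and the pan-leukocyte marker Ptprc had 5, 2 and 2 counts in OCY-EV+ANTA, 3, 0 and 0 in OCY-EV+ANTA-NC and 0 in each Veh library. Adgre1, Itgam and Csf1r had at most 1, 1 and 9 counts, and Clec4f and Marco had 0 in all 9. The part of these markers in the differences above was not tested.

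Of the 3 sterol export genes 1 fell and 1 rose. Lipa encodes lysosomal acid lipase, which releases cholesterol and fatty acids from the esters and triglycerides that reach the lysosome (chromosome 19, 34492318 to 34527474, minus strand). It stood at 123, 128 and 128 CPM in OCY-EV+ANTA, 148, 144 and 142 CPM in OCY-EV+ANTA-NC, and 154, 148 and 150 CPM in Veh. Every OCY-EV+ANTA library lay below all 6 others. Lipa fell with a log2 fold change of -0.20 against OCY-EV+ANTA-NC (SE 0.04, adjusted p = 0.00167 by edgeR), and in all 18 alternatives it was called, between -0.23 and -0.16. Npc1, the membrane protein that passes the freed cholesterol out of the lysosome (chromosome 18, 12189692 to 12236400, minus strand), had 134, 132 and 134 CPM in OCY-EV+ANTA, 112, 118 and 125 CPM in OCY-EV+ANTA-NC, and 121, 130 and 128 CPM in Veh. OCY-EV+ANTA lay above the rest, and the other groups overlapped each other. Its log2 fold change was 0.17 (SE 0.04, adjusted p = 0.012 by edgeR), lost on the FPKM scale and without OCY-EV+ANTA-NC 1 (adjusted p up to 0.0746). Npc2, the soluble protein that hands cholesterol to Npc1, had a log2 fold change of 0.06 and was not called (adjusted p = 0.248 by edgeR).

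**Figure D4:**
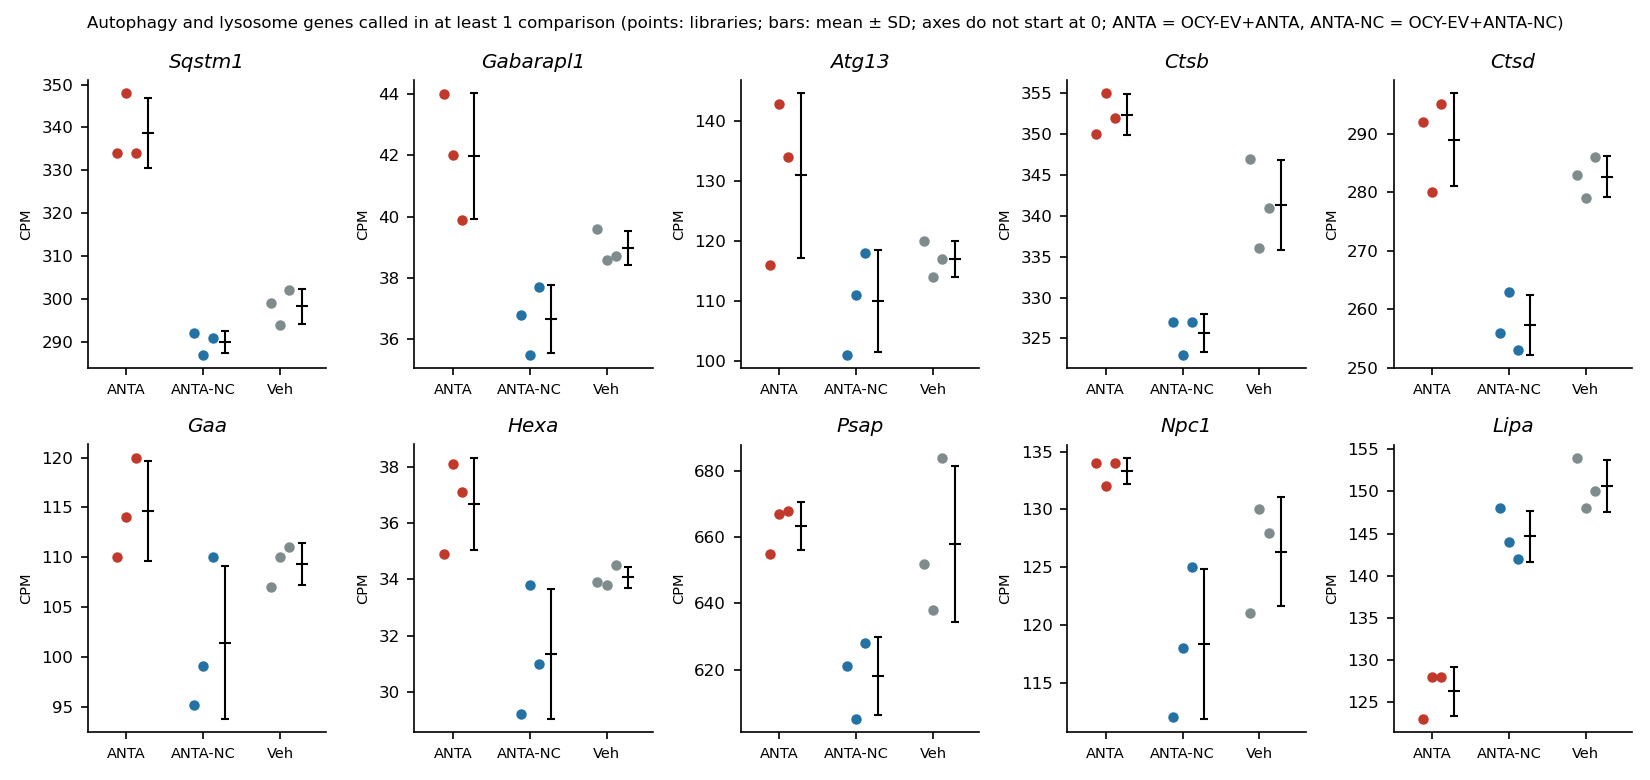
CPM per library (points) with the mean and SD (bars) for the 10 genes called in at least 1 comparison, with OCY-EV+ANTA, OCY-EV+ANTA-NC and Veh from left to right in each panel and axes that do not start at 0. For Sqstm1 the OCY-EV+ANTA libraries (334 to 348 CPM) stand above both other groups, for Lipa (123 to 128 CPM) below both, and for Ctsd the OCY-EV+ANTA-NC libraries (253 to 263 CPM) lie below both.

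The second comparison, OCY-EV+ANTA-NC against Veh, asked what vesicles with the control antagomir changed. None of the 38 genes was called by edgeR's test, where 1.02% of all genes were (94 or 0.813% higher and 24 or 0.208% lower, and 157 and 6 when scaled by library totals alone). At an unadjusted p under 0.05 there were 7 of 38 genes (18.4%, against 13.5% of all genes), and DESeq2 called 1, Ctsd as lower. In the alternatives that number ran from 3, as with library totals alone (1509 of 11562 over all genes), to 10 with a replicate block. The TMM factors were 1.01 to 1.015 in OCY-EV+ANTA-NC and 0.9872 to 0.9989 in the other groups. Log2 fold changes were negative for 29 genes and positive for 9, with a median of -0.05, where the median of all genes was -0.0047. Groups did not overlap for 12 genes, all lower in OCY-EV+ANTA-NC, which is 31.6% of the list lower and 0 higher, against 10.3% lower and 8.99% higher over all genes. Ctsd averaged 257 ± 5.0 CPM in OCY-EV+ANTA-NC and 282 ± 3.4 CPM in Veh (SD, n = 3 each), for a log2 fold change of -0.14 with SE 0.03 (edgeR adjusted p = 0.0538), and was called in 5 of 18 alternatives. Sqstm1 and Lipa had log2 fold changes of -0.04 and -0.05 between these groups and were not called (edgeR adjusted p = 0.632 and 0.589).

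The third comparison set OCY-EV+ANTA against Veh, and here 2 of 38 genes were called, 1 in each direction (5.26%, against 6.52% of all genes, 3.06% higher and 3.46% lower). At an unadjusted p under 0.05 there were 4 of 38 genes (10.5%, against 20.8% of all genes). Groups did not overlap for 8 genes, 6 of them higher in OCY-EV+ANTA (21.1%, against a background of 25.0%). Sqstm1 averaged 339 ± 8.2 CPM in OCY-EV+ANTA and 298 ± 3.8 CPM in Veh (SD, n = 3 each), and rose by 0.18 on the log2 scale, SE 0.03 (edgeR adjusted p = 0.00104). Lipa averaged 126 ± 2.9 CPM in OCY-EV+ANTA and 150 ± 2.9 CPM in Veh, and fell with a log2 fold change of -0.25 with SE 0.04 (edgeR adjusted p = 0.000421). Both calls held in all 18 alternatives. Neither gene holds CACGTG in the windows printed above. The other 8 genes called against OCY-EV+ANTA-NC were not called against Veh, with log2 fold changes between 0.01 for Psap and 0.17 for Atg13. Map1lc3b had a log2 fold change of -0.10 with SE 0.03 (edgeR adjusted p = 0.0827) without overlap. With a replicate block Map1lc3b was called lower and Atg13 higher, at -0.10 and 0.17, though the replicate numbers are not said to pair the libraries. The 3 comparisons share libraries in pairs, so their fold changes are not independent of each other. For Ctsd they read 0.17 in OCY-EV+ANTA against OCY-EV+ANTA-NC, -0.14 in OCY-EV+ANTA-NC against Veh and 0.03 in OCY-EV+ANTA against Veh, whereas Lipa read -0.20 in OCY-EV+ANTA against OCY-EV+ANTA-NC, -0.05 in OCY-EV+ANTA-NC against Veh and -0.25 in OCY-EV+ANTA against Veh. Summed FPKM of all 38 genes were 1774 ± 11 in OCY-EV+ANTA, 1720 ± 11 in OCY-EV+ANTA-NC and 1764 ± 12 in Veh (SD, n = 3 each).

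The wider pathway was read from 9 further lists, also chosen with earlier results of these data known, with 164 tested genes. In OCY-EV+ANTA against OCY-EV+ANTA-NC, 10 of these rose and 9 fell, 11.6% of them against the 14.7% of all genes, with a median log2 fold change near 0. Receptors for selective autophagy rose in 3 of 14 cases (21.4%) and fell in none. Stbd1, which tethers glycogen, averaged 33.3 ± 1.6 CPM in OCY-EV+ANTA and 25.3 ± 0.90 CPM in OCY-EV+ANTA-NC (log2 fold change 0.39, adjusted p = 0.000248 by edgeR). Ncoa4, the receptor for ferritin, averaged 177 ± 7.6 CPM in OCY-EV+ANTA and 150 ± 5.3 CPM in OCY-EV+ANTA-NC (0.24, adjusted p = 0.00124). Bnip3l, a receptor on mitochondria, rose by a log2 fold change of 0.10 (adjusted p = 0.0241).

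Further autophagosome machinery was called in 6 of 23 genes, 3 in each direction (26.1%, against 14.7% of all genes tested). Vmp1, a membrane protein needed for autophagosomes to form and detach, fell to 277 ± 6.0 CPM in OCY-EV+ANTA, against 364 ± 4.0 CPM in OCY-EV+ANTA-NC (SD, n = 3 each), with a log2 fold change of -0.39 (adjusted p = 1.47e-07 by edgeR). Bcl2, which binds and restrains Beclin in addition to its role in cell survival, and Atg4a, a relative of Atg4b, fell as well, at -0.55 and -0.22 on the log2 scale (adjusted p = 0.000542 and 0.00117). Ambra1, an activator of the Beclin complex, rose at 0.19 (adjusted p = 0.00389). The other genes called higher were Rubcn and Wdr45b, both at 0.15 (adjusted p = 0.0146 and 0.0446 by edgeR). Neither was followed through the alternatives.

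Apart from sterol transfer, the lists of lysosomal genes outside the 38 had shares of calls below the 14.7% of all genes tested. Whether these shares differ from it was not tested, and several of the lists hold few genes. The shares called were 2.94% for further hydrolases, 11.8% for further membrane proteins and 6.25% for the proton pump. They were 6.67% for the fusion machinery and 3.57% for the genes around mTORC1 and TFEB. Of 34 further hydrolases and activators 1 rose, Gm2a, the activator of ganglioside breakdown by hexosaminidase (log2 fold change 0.17, adjusted p = 0.0219 by edgeR), and the median of that list was -0.03. Among 17 further membrane proteins, the exporters of sialic acid Slc17a5 and of cystine Ctns fell at -0.26 and -0.20 (adjusted p = 0.00157 and 0.0417). The proton pump had 1 of 16 genes called, Atp6v1d at -0.14 (adjusted p = 0.0222), and the fusion machinery 1 of 15, the HOPS subunit Vps41 at -0.16 (adjusted p = 0.00777). None of 9 genes that sort hydrolases to the lysosome was called, with Sort1 nearest at -0.13 (adjusted p = 0.239). Of 28 genes around mTORC1 and TFEB 1 rose, the folliculin partner Fnip2 at 0.19 (adjusted p = 0.0029).

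Genes for sterol transfer at the lysosome had the highest share of calls among the 9 lists, 4 of 8, with 2 in each direction. That is 50%, against 14.7% of all genes tested, and it rests on few genes. Tmem97, an interactor of Npc1, rose to 52.7 ± 2.8 CPM in OCY-EV+ANTA, against 40.3 ± 2.4 CPM in OCY-EV+ANTA-NC (SD, n = 3 each; log2 fold change 0.39, adjusted p = 0.000116 by edgeR). Stard3, which binds cholesterol on late endosomes, fell at -0.22 (adjusted p = 0.0142) and the lipid bridge protein Vps13c at -0.16 (adjusted p = 0.0126). Scp2, a sterol carrier, rose at 0.12 (adjusted p = 0.0486), a call that held in 4 of 18 alternatives. Of the other calls named from the wider lists in this comparison, Bnip3l, Gm2a, Atp6v1d, Ctns and Stard3 lost theirs in 7, 6, 6, 8 and 1 alternatives (adjusted p up to 0.182), each with at least 1 that left out a library, and Vmp1, Bcl2, Atg4a, Ambra1, Stbd1, Ncoa4, Vps41, Slc17a5, Fnip2, Tmem97 and Vps13c kept theirs in all 18.

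**Figure D5:**
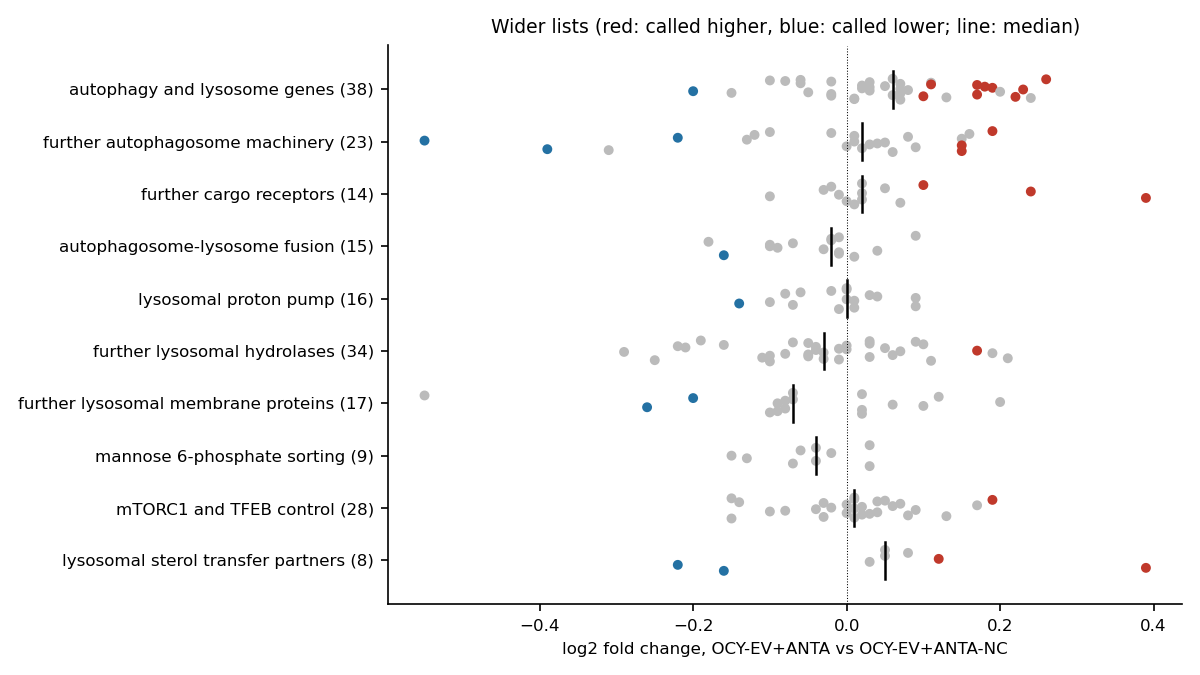
Log2 fold change in OCY-EV+ANTA against OCY-EV+ANTA-NC of the 38 autophagy and lysosome genes (top row) and of 9 wider lists, with 1 point for each tested gene, the number tested in brackets and a vertical line at the median. Red points were called higher and blue points lower: the further hydrolases show 1 call among 34 genes, and the further autophagosome machinery spans -0.55 for Bcl2 to 0.19 for Ambra1.

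In OCY-EV+ANTA-NC against Veh, Vmp1 was the one gene of the wider lists that was called (0.61% of them, against 1.02% of all genes). It rose there, at 364 ± 4.0 CPM in OCY-EV+ANTA-NC and 323 ± 7.3 CPM in Veh (SD, n = 3 each; log2 fold change 0.17, adjusted p = 0.00867 by edgeR), and lost the call with GC and length offsets and without Veh 3 (adjusted p up to 0.0814). In the other lists the genes with the smallest adjusted p there were Sec62 of the receptors (0.12, adjusted p = 0.121), Zkscan3, a repressor of autophagy genes (0.17, adjusted p = 0.147), and Galc of the hydrolases (0.20, adjusted p = 0.18). For Cd63, Gnptab, Atp6v0e, Osbpl5 and Stx17 of the remaining lists the log2 fold changes were -0.09, -0.10, -0.10, -0.12 and 0.13, with adjusted p between 0.246 and 0.467.

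In OCY-EV+ANTA against Veh 3 of the 164 genes rose and 8 fell (6.71%, against 6.52% of all genes). Stbd1, Ncoa4 and Tmem97 rose at 0.44, 0.21 and 0.38, and Vmp1, Atg4a, Bcl2, Slc17a5 and Ctns fell at -0.22, -0.18, -0.35, -0.21 and -0.22. Sort1, a sorting receptor of the Golgi, fell at -0.26 (adjusted p = 0.0284), the tetraspanin Cd63 at -0.15 (adjusted p = 0.00969) and the hydrolase Naglu at -0.15 (adjusted p = 0.0445). The calls of Stbd1, Tmem97 and Vmp1 held in all 18 alternatives, and those of the other 8 ended in 1 (Atg4a without Veh 3, Ncoa4 without Veh 2) to 11 (Ctns) of them. Not called were the nearest genes of 3 other lists, Vamp8 of the fusion machinery (-0.14, adjusted p = 0.0566), Fnip2 (0.13, adjusted p = 0.059) and Atp6v1d (-0.09, adjusted p = 0.186).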

How the data were processed

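Total RNA of 9 libraries was sequenced. The authors deposited read counts per gene and FPKM for every library. HTSeq counted the reads on mm10, per the submitters' processing notes. Aligner, annotation, versions and strand setting were not given in the sources used here. Deposited FPKM equalled the counts scaled by the column total and a fixed length per gene, so they hold no further normalisation.

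Deposited counts (17298814 to 21737643 per library) were analysed with edgeR 4.0.16 in R 4.3.3. Genes passing filterByExpr (minimum count 10, minimum total 15) were scaled with TMM factors, and all 9 libraries entered 1 fit with a coefficient for each group and no covariate. Quasi-likelihood tests were adjusted by Benjamini-Hochberg over 11562 genes and called under 0.05. CPM are counts relative to TMM-scaled totals. Alternatives used DESeq2 1.42.0, limma 3.58.1 on log2(FPKM + 1) and log2(FPKM + 0.1) of the deposited FPKM for genes with a mean of at least 0.5 FPKM, library totals alone, no filter, only the groups compared, offsets for GC content and length, a replicate block, and each library left out. The fitting code was tested on simulated data.

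Identifiers were matched to GENCODE M21 (GRCm38, the assembly of mm10; 21851 of 21959 matched), which gave symbols, positions and exon overlaps. Promoter and microRNA sequences are RefSeq's (GRCm38.p6). Values in every library are given for each of the 38 genes called in any comparison and for Sqstm1, Map1lc3b, Gabarapl1, Tfeb, Lamp1, Ctsd, Npc1 and Lipa. From each wider list up to 4 called genes with the smallest adjusted p were named for a comparison, or 1 where none was called. Tfe3, Mcoln1, Rubcn and Wdr45b were added to the text after their values were seen. The 38 genes, the wider lists and the markers were chosen with earlier results of these data known. Vamp7 of the wider lists had no matching identifier.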

Additional observations from a re-analysis of the deposited data

How the results depend on the processing

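The 18 alternatives kept the direction of every called gene among the 38, and Sqstm1, Ctsd and Lipa in OCY-EV+ANTA against OCY-EV+ANTA-NC and Sqstm1 and Lipa in OCY-EV+ANTA against Veh were called in each. In OCY-EV+ANTA against OCY-EV+ANTA-NC the 10 calls among the 38 became 5 on log2(FPKM + 1) and 5 on log2(FPKM + 0.1), and 4 to 11 with 1 library left out, lowest without OCY-EV+ANTA 2 and 6 without OCY-EV+ANTA-NC 1 or 2. Over all genes the 1698 calls became 1911 without the filter and 1005 (without OCY-EV+ANTA 2) to 1635 with a library left out, and the split into higher and lower was 407 and 936 on log2(FPKM + 1). In OCY-EV+ANTA-NC against Veh, 1 of the 38 was called by DESeq2, without the filter and with only those groups in the fit, and 0 to 1 with a library left out (1 without OCY-EV+ANTA 1). The 118 calls over all genes became 335 without the filter, 180 with only those groups, 52 with GC and length offsets, 51 and 50 on the FPKM scales, and 43 to 184 with a library left out (43, 44 and 71 without Veh 3, 2 and 1, 53 and 73 without OCY-EV+ANTA-NC 3 and 2, 184 without OCY-EV+ANTA 1). In OCY-EV+ANTA against Veh, leaving out a library gave 322 to 872 calls over all genes, against 754 (322 and 422 without Veh 2 and 3, 361 and 459 without OCY-EV+ANTA 2 and 3). The cause of these differences was not tested.

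The replicate numbers are not said to pair the libraries. Same-numbered libraries correlated in their deviations from the group means at 0.025 to 0.235 (9 pairs) and others at -0.144 to 0.073 (18 pairs), and not every library correlated best with its own number. With a replicate block, 12 of the 38 genes were called in OCY-EV+ANTA against OCY-EV+ANTA-NC (14 with GC and length offsets added), 3 in OCY-EV+ANTA-NC against Veh (Tfe3, Ctsd and Psap, all lower) and 4 in OCY-EV+ANTA against Veh (4 with the offsets; Sqstm1 and Atg13 higher, Map1lc3b and Lipa lower in both fits). Over all genes the block gave 2427 calls in OCY-EV+ANTA against OCY-EV+ANTA-NC (2245 with the offsets), 522 calls in OCY-EV+ANTA-NC against Veh (303 with the offsets) and 1446 in OCY-EV+ANTA against Veh (1438 with the offsets).

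Of the 80 fold changes of single genes that were followed through the alternatives, 2 changed sign, both close to 0 and not called. Tfeb in OCY-EV+ANTA-NC against Veh was 0.01 without OCY-EV+ANTA-NC 1 and ran from -0.21 to 0.01 with a library left out, and Psap in OCY-EV+ANTA against Veh was -0.01 without Veh 2 and ran from -0.01 to 0.04. Over all 38 genes, the number with a positive fold change ran from 23 to 28 in OCY-EV+ANTA against OCY-EV+ANTA-NC, from 9 to 12 in OCY-EV+ANTA-NC against Veh and from 18 to 25 in OCY-EV+ANTA against Veh, so further genes that were not followed changed sign. Of the other values under the alternatives, 1287 kept their direction and side of the threshold, 116 lost the call and 35 gained one. Of the 38 genes, Map1lc3a and Tfeb rested on the fewest counts, 35 to 61 and 76 to 121 in a library.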
